A study of Homo sapiens with 8 samples.

Results

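The genes described here are 10 regulators of the G1 phase of the cell cycle, 5 inhibitors of cyclin-dependent kinases (CDKN1B, CDKN2A, CDKN2B, CDKN2C and CDKN2D) and 5 G1 cyclins (CCND1, CCND2, CCND3, CCNE1 and CCNE2). They were chosen by gene name and each matched 1 of the 60649 gene identifiers in every library. RNA was sequenced from HCT116 cells, a human colorectal cancer line, and from UF1hypo cells, a single HCT116-derived clone in which 1 of the UHRF1 alleles had been knocked out with CRISPR-Cas9 and Cre. Each line carried a lentiviral hairpin with a scrambled sequence (shScr) or a hairpin against UHRF1 (shUHRF1), in pools of infected cells selected with puromycin, so that all 4 groups shared infection and selection. There were 2 libraries in each group and 8 in all, and the comparisons ask how the parental line and the clone responded to depletion of UHRF1, the protein that brings the maintenance DNA methyltransferase DNMT1 to replicating DNA. The study harvested its pools at either of a pair of times after infection and the labels do not give the time of these libraries, nor whether replicates were separate cultures, so p-values measure the spread between these libraries, which may be technical. Because UF1hypo is 1 clone, the UHRF1 genotype and other properties of that clone cannot be told apart.

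Progression through G1 depends on D-type cyclins, which bind and activate CDK4 and CDK6, and then on E-type cyclins, which activate CDK2; the kinases phosphorylate the retinoblastoma protein and release E2F factors that drive entry into S phase. The INK4 inhibitors, p16 (CDKN2A), p15 (CDKN2B), p18 (CDKN2C) and p19 (CDKN2D), bind CDK4 and CDK6 and block their pairing with D-type cyclins, whereas the CIP/KIP inhibitor p27 (CDKN1B) acts mainly on CDK2 complexes. CDKN2A also encodes ARF from a separate first exon, and ARF stabilises p53. CDKN2A and CDKN2B are well known as tumour suppressor genes that are deleted or silenced by promoter methylation in many cancers, and CCND1 is a target of Wnt signalling in the colon.

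CDKN2A, CDKN2B and CCND3 are the 3 of these genes that were called after UHRF1 knockdown in UF1hypo, and their promoters are shown to place them on the genome and to show how many CpG sites, the substrate of DNA methylation, each one holds. The windows are RefSeq promoters of build GRCh38.p14, each with 250 bases before and 50 bases after an annotated transcription start, and all of them are on the minus strand. The p16 start of CDKN2A lies in chr9:21974808-21975107 and the ARF start in chr9:21995275-21995574. The CDKN2B start lies in chr9:22009256-22009555. CCND3 has an inner start in chr6:41941759-41942058 and an outer start in chr6:42048639-42048938. Capitals mark the CG dinucleotides.
CDKN2A p16 promoter: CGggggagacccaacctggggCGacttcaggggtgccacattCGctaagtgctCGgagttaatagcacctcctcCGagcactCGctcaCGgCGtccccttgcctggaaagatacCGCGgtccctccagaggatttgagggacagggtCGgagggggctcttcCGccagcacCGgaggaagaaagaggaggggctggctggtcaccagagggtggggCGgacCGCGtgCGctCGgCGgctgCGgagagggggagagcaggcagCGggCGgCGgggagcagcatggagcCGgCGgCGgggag
CDKN2A ARF promoter: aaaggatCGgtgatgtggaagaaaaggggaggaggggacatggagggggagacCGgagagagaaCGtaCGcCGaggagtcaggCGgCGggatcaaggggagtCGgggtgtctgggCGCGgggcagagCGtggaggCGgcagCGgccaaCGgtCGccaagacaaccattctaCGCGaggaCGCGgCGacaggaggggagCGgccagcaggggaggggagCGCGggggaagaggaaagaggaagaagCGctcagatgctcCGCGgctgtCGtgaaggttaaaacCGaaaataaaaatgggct
CDKN2B promoter: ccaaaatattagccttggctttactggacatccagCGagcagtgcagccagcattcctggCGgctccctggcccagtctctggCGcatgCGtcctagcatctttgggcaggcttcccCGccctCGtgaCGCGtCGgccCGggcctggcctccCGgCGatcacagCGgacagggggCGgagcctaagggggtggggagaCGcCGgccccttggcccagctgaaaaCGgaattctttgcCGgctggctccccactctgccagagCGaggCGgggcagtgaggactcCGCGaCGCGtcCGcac
CCND3 inner promoter: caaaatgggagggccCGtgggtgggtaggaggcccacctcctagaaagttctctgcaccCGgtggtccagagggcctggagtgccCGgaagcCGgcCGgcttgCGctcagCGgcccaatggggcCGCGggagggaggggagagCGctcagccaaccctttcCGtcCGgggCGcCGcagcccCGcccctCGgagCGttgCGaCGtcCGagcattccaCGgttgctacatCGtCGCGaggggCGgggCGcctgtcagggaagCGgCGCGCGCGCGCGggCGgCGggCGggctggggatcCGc
CCND3 outer promoter: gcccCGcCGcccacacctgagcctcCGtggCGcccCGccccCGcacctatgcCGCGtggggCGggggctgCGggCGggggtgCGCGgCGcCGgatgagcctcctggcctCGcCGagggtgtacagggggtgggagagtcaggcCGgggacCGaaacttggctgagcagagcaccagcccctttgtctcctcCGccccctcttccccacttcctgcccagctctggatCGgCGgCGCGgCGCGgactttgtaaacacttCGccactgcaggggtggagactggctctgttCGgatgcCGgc

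The p16 window held 26 CpG sites and the ARF window 28, more than 69.9% and 73.8% of the 35116 promoters of the same length in the table. The CDKN2B window held 25, more than 68.0% of promoters. The inner CCND3 window held 37 and the outer one 29, while a further CCND3 window at chr6:41939156-41939455 held 3, fewer than the median of 14 over all promoters (quartiles 4 and 28). Promoters were matched for 7 of the 10 genes, in 12 windows that held between 3 and 47 CpG sites, the most being in CCNE1. CCND1, CCND2 and CCNE2 had no entry. The GC box GGGCGG was found on either strand in 9 of the 12 windows, and in 45.0% of all promoters. None of the E2F words TTTCCCGC, TTTGGCGC, TTTGCCGC and TTTCGCGC was found on either strand in the 12 windows, and at least 1 of them was found in 3.31% of all promoters. DNA methylation was not analysed here, so these windows describe sequence only.

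The values are TPM, transcript abundances which the authors computed with StringTie and which are scaled for transcript length and to the same total in every library. Aligned bases per library ranged from 5.42 to 7.83 gigabases, and the number of reads behind the value of a gene is unknown, so a TPM of 0 means only that the gene is listed at 0. UHRF1 TPM in HCT116 was 87.5 and 98.4 with shScr and 31.7 and 32.7 with shUHRF1, a log2 fold change of −1.50 (SE 0.222, adjusted p = 0.0564). In UF1hypo it was 47.3 and 50.6 with shScr and 34.1 and 21.1 with shUHRF1, a log2 fold change of −0.84 (SE 0.221, adjusted p = 0.0406). Both knockdown groups lay below their controls without overlap, and UF1hypo shScr lay below HCT116 shScr by 0.91 on the log2 scale (log2 fold change −0.91, adjusted p = 0.0545). Of 10 colorectal epithelial markers, 6 exceeded a TPM of 1 in each group, and VIL1, CDX1, LGALS4 and CEACAM5 did not in any. The sum of the epithelial list differed between the groups, from 4354 to 4408 TPM with shScr and 5485 to 5604 with shUHRF1 in HCT116 up to 8813 to 9086 and 9857 to 12710 in UF1hypo. Of 8 leukocyte markers CD68 alone exceeded 1, and the list summed to between 7.86 and 15.1 TPM in HCT116 libraries, whereas in UF1hypo it summed to between 40.6 and 42.9 with shScr and between 78.8 and 109 with shUHRF1. Of 7 fibroblast markers, COL1A1 exceeded 1 in every group and THY1 in UF1hypo shUHRF1 alone, at 5.72 and 4.93 TPM, with sums of 21.3 to 28.9 in the other groups and 43.3 to 72.0 there. No endothelial marker of 4 exceeded 1. The part of these markers, whose sums move with the groups, in the results below was not tested.

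Among the INK4 inhibitors, CDKN2B (ENSG00000147883.12, chromosome 9, 22002903 to 22009305, minus strand) had a TPM of 7.12 and 6.62 under shScr and 6.71 and 5.96 under shUHRF1 in HCT116, and 4.62 and 4.23 under shScr and 13.3 and 11.1 under shUHRF1 in UF1hypo. Both UF1hypo shUHRF1 libraries lay above the other 6, and both UF1hypo shScr libraries lay below them. The gene was 2.42-fold higher with shUHRF1 than with shScr in UF1hypo on the log2(TPM + 1) scale used throughout, which understates the change of low genes (log2 fold change 1.28, SE 0.198, 95% interval 0.83 to 1.73, adjusted p = 0.00411). In HCT116 the same knockdown gave −0.10 (95% interval −0.56 to 0.35), and the 2 effects differed by 1.38 (SE 0.280, adjusted p = 0.0284).

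CDKN2A (ENSG00000147889.18, chromosome 9, 21967752 to 21995301, minus strand) had a TPM of 169 and 145 under shScr and 165 and 164 under shUHRF1 in HCT116, and 115 and 137 under shScr and 317 and 205 under shUHRF1 in UF1hypo. The UF1hypo shUHRF1 libraries were again the highest, but they stood farther from each other (SD 78.8, against 0.541 to 16.9 in the other groups). The log2 fold change in UF1hypo was 1.02 (SE 0.212, 95% interval 0.54 to 1.51, adjusted p = 0.0160), just past the limit of 1 used for a call. In HCT116 it was 0.07 (95% interval −0.41 to 0.55), and the difference of 0.95 between the lines did not pass (SE 0.300, adjusted p = 0.122). The gene tables do not separate p16 from ARF transcripts, so the value is their sum.

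CDKN2A and CDKN2B stand next to each other on the same strand with 7601 bases between them. The antisense RNA gene CDKN2B-AS1, known as ANRIL, lies on the plus strand from 21994139 to 22128103 and covers all 6403 bases of CDKN2B and 1163 bases of CDKN2A. Its TPM was 0.704 and 1.18 under shScr and 0.864 and 0.589 under shUHRF1 in HCT116, and 1.32 and 0.815 under shScr and 1.48 and 3.89 under shUHRF1 in UF1hypo. It was thus highest in UF1hypo shUHRF1, where replicate 2 exceeded replicate 1, the reverse of the order in CDKN2B and CDKN2A. The GC content of its canonical transcript is 45.0%. For genes near 44.5% and 45.9% GC, replicate 1 minus replicate 2 in that group had a median of −0.43 and −0.31 (log2 scale). The values of CDKN2B-AS1 are low, and the cause of its replicate order was not tested. Whether the reads were counted by strand is not given in the sources used here, so reads of CDKN2B and its antisense partner cannot be told apart.

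The other INK4 genes, which lie on other chromosomes, did not share this pattern. CDKN2D (ENSG00000129355.7, chromosome 19, 10566460 to 10569059, minus strand) had a TPM of 23.3 and 26.7 under shScr and 38.9 and 41.2 under shUHRF1 in HCT116, and 25.4 and 22.7 under shScr and 37.1 and 27.2 under shUHRF1 in UF1hypo. Knockdown libraries lay above their controls in both lines, with log2 fold changes of 0.66 in HCT116 (SE 0.196, 95% interval 0.22 to 1.11, adjusted p = 0.412) and 0.39 in UF1hypo (SE 0.195, adjusted p = 0.237). Fitted on the 4 HCT116 libraries alone, the same HCT116 change had an adjusted p of 0.0135, and with GC content and transcript length corrected for it was 0.64 (adjusted p = 0.0261). An adjusted p below 0.05 was reached in 3 of 15 other settings, with 0.647 the highest. With 1 library left out in turn, the HCT116 change was 0.57 to 0.76.

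CDKN2C (ENSG00000123080.12, chromosome 1, 50960745 to 50974634, plus strand) had a TPM of 14.4 and 17.7 under shScr and 18.4 and 18.5 under shUHRF1 in HCT116, and 10.8 and 9.50 under shScr and 12.7 and 10.2 under shUHRF1 in UF1hypo. It followed the line more than the hairpin, with every UF1hypo library below every HCT116 library. The log2 fold change of UF1hypo shScr against HCT116 shScr was −0.61 and did not pass after adjustment (SE 0.200, adjusted p = 0.143), and the knockdown effects were 0.20 in HCT116 and 0.16 in UF1hypo (adjusted p = 1 and 0.659).

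CDKN1B (ENSG00000111276.12, chromosome 12, 12685498 to 12722369, plus strand), which encodes p27, had a TPM of 26.6 in both libraries under shScr and 36.5 and 37.5 under shUHRF1 in HCT116, and 26.2 and 23.1 under shScr and 19.96 and 30.3 under shUHRF1 in UF1hypo. The HCT116 groups were far tighter (SD 0.0118 and 0.723) than UF1hypo shUHRF1 (SD 7.34), whose libraries lay on either side of the controls. The log2 fold change was 0.46 in HCT116 (SE 0.213, 95% interval −0.02 to 0.95, adjusted p = 0.825), and 0.00 in UF1hypo (95% interval −0.49 to 0.49). On the 4 HCT116 libraries alone the adjusted p of the HCT116 change was 0.0469, and it was below 0.05 in 2 of 15 other settings and in 0 of the 8 limma fits without 1 library. A change in UF1hypo within the interval above was not detectable with 2 libraries a group.

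Among the D-type cyclins, CCND3 (ENSG00000112576.13, chromosome 6, 41934934 to 42050357, minus strand) had a TPM of 33.1 and 40.4 under shScr and 29.4 and 26.6 under shUHRF1 in HCT116, and 59.4 and 59.3 under shScr and 147 and 98.9 under shUHRF1 in UF1hypo. The 4 groups did not overlap, and the knockdown libraries lay below their controls in HCT116 and above them in UF1hypo. The log2 fold change in UF1hypo was 1.01 (SE 0.21, 95% interval 0.53 to 1.49, adjusted p = 0.0162), against −0.37 in HCT116 (95% interval −0.85 to 0.11, adjusted p = 0.906). The effects differed by 1.38 (SE 0.298, 95% interval 0.70 to 2.06, adjusted p = 0.0363).

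CCND1 (ENSG00000110092.4, chromosome 11, 69641156 to 69654474, plus strand) was the most abundant of the 10 genes by TPM in every library. Its TPM was 301 and 278 under shScr and 271 and 270.3 under shUHRF1 in HCT116, and 513 and 499 under shScr and 619.6 and 677 under shUHRF1 in UF1hypo. Every UF1hypo library thus lay above every HCT116 library, and within UF1hypo the knockdown libraries lay above the controls. Between the control groups the log2 fold change was 0.80 (SE 0.128, 95% interval 0.51 to 1.095, adjusted p = 0.00889), which passed the adjusted p but not the limit of 1. The knockdown effects of −0.10 in HCT116 and 0.35 in UF1hypo did not pass (adjusted p = 1 and 0.103), nor did their difference of 0.45 (adjusted p = 0.217).

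CCND2 (ENSG00000118971.9, chromosome 12, 4269771 to 4305353, plus strand) was listed at 0 in all 6 libraries other than UF1hypo shUHRF1, where it had a TPM of 0.503 and 0.329. It never exceeded a TPM of 1 and was not tested, and no fold change is formed against groups listed at 0.

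Of the E-type cyclins CCNE1 varied little, whereas the group means of CCNE2 spanned 1.27 on the log2 scale. CCNE1 (ENSG00000105173.14, chromosome 19, 29811991 to 29824312, plus strand) had a TPM of 56.8 and 47.8 under shScr and 54.0 and 47.0 under shUHRF1 in HCT116, and 47.0 and 42.8 under shScr and 50.1 and 53.7 under shUHRF1 in UF1hypo. The range of its group means, 0.21 on the log2 scale, was the narrowest of the 10 genes, and no comparison passed. CCNE2 had a TPM of 8.11 and 9.19 under shScr and 13.1 and 14.1 under shUHRF1 in HCT116, and 8.60 and 6.76 under shScr and 3.16 and 7.77 under shUHRF1 in UF1hypo. The knockdown libraries lay above the controls in HCT116, with a log2 fold change of 0.60 (SE 0.327, adjusted p = 0.894), and in UF1hypo they overlapped, at −0.52 (SE 0.331, 95% interval −1.27 to 0.24, adjusted p = 0.354). The difference between the lines was −1.11 (SE 0.468, 95% interval −2.18 to −0.04, adjusted p = 0.2498). With GC content and transcript length corrected for, the HCT116 change of CCNE2 was 0.65 (adjusted p = 0.0415). The difference was then −0.96 (adjusted p = 0.0138), and both were under the fold limit. An adjusted p below 0.05 was reached in 1 of 15 other settings for the HCT116 change and in 1 of 14 for the difference.

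**Figure D1:**
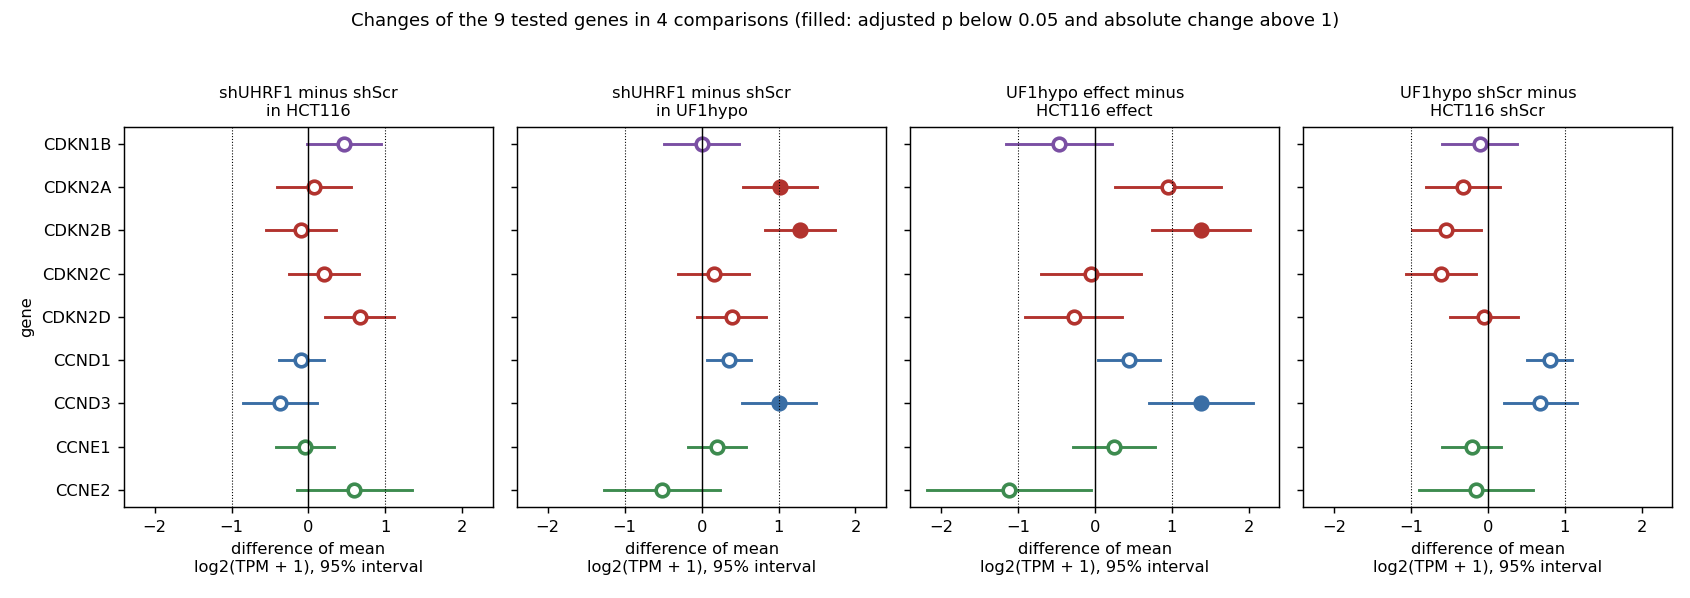
Differences of mean log2(TPM + 1) with 95% intervals (horizontal axis) of the 9 tested genes in the 4 comparisons, filled where the adjusted p was below 0.05 and the absolute change above 1. CDKN2A, CDKN2B and CCND3 are filled for the knockdown in UF1hypo, CDKN2B and CCND3 for the difference between the lines, and none for the other comparisons.

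Counted together, 3 of the 9 tested genes were called in UF1hypo after UHRF1 knockdown, all higher, where 8.53% of all 13620 genes tested were called, 7.39% called higher and 13.3% had an adjusted p below 0.05 at any fold change. The median log2 fold change of the 9 was 0.355, and that of all genes tested was 0.04. The libraries of the 2 groups did not overlap for 6 of the 9, all higher in shUHRF1 (CDKN2A, CDKN2B, CDKN2D, CCND1, CCND3 and CCNE1), as they did not for 48.9% of all genes tested. Of all 13620 genes tested, 4164 did not overlap and were higher in shUHRF1, and 2494 did not overlap and were lower. In HCT116, 0 of the 9 were called, beside 0.0708% of 12704 genes tested with limma, and 1 of the 9, CDKN2D, had an unadjusted p below 0.05. The HCT116 groups did not overlap for 6 of the 9, with CDKN1B, CDKN2C, CDKN2D and CCNE2 higher and CCND1 and CCND3 lower in shUHRF1, beside 49.4% of all genes tested.

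The difference between the 2 knockdown effects was called for 2 of the 9, CDKN2B and CCND3, beside 5.09% of 13781 genes tested and 4.54% called with the more positive effect in UF1hypo. Between UF1hypo shScr and HCT116 shScr, 0 of the 9 were called with limma, beside 3.54% of 12856 genes tested, 4 had an unadjusted p below 0.05 (CDKN2B, CDKN2C, CCND1 and CCND3), and CCND1 alone had an adjusted p below 0.05, beside 4.78% of all genes at any fold change. There 7 of the 9 did not overlap, with CDKN1B, CDKN2A, CDKN2B, CDKN2C and CCNE1 lower and CCND1 and CCND3 higher in the clone, and 66.4% of all genes tested did not overlap either. These comparisons share control libraries, so the lower UF1hypo shScr value of CDKN2B enters both its change after knockdown and its difference from HCT116 shScr. With 2 libraries on each side, an exact two-sided permutation test of 1 gene cannot reach a p below 0.33, so the calls rest on the spread that limma shares across genes. The fit also shares 1 spread per gene over the 4 groups. The median absolute replicate difference was 0.453 in UF1hypo shUHRF1 and 0.117 to 0.161 in the other groups (log2 scale). For CDKN2A the SE was 0.212 in both lines, against 0.0955 in HCT116 and 0.268 in UF1hypo when each line was fitted alone. The numbers of genes called in HCT116 and in UF1hypo therefore depend on this sharing.

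The 2 UF1hypo shUHRF1 libraries stood apart from each other in a way that followed GC content. Over 13781 genes, which are not independent replicates, Spearman's rho between the replicate difference and the GC content of the transcript was 0.814 in this group, −0.508 in UF1hypo shScr, and −0.04 and −0.07 in the HCT116 groups. CDKN2A (58.2% GC) and CCND3 (60% GC) were higher in replicate 1 by 0.62 and 0.56 on the log2 scale. CDKN1B (45.9% GC) and CCNE2 (34.6% GC) were lower in replicate 1 (−0.58 and −1.08). CDKN2B (44.2% GC) was higher in replicate 1 by 0.24 although the median of genes in its range of GC content was negative. Over the 9 tested genes rho was 0.683, given as a description.

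Subtracting each library's median over genes of like GC content and length left CDKN2B at 1.33 in UF1hypo (adjusted p = 0.00154). It gave 0.88 for CDKN2A (adjusted p = 0.00101) and 0.73 for CCND3 (adjusted p = 0.00237), both with an adjusted p below 0.05 and under the fold limit. The difference between the lines remained called for CCND3 at 1.11 (adjusted p = 0.00356) and for CDKN2B at 1.35 (adjusted p = 0.0131). For CDKN2A that difference was 0.86 (adjusted p = 0.0106), under the fold limit. This was the 1 of 14 other settings with an adjusted p below 0.05 for the CDKN2A difference. Without replicate 1 of UF1hypo shUHRF1 the change in UF1hypo was 0.71 for CDKN2A, 0.73 for CCND3 and 1.16 for CDKN2B, and without replicate 2 it was 1.33, 1.29 and 1.40.

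Over the 15 other settings that kept both libraries of each UF1hypo group, CDKN2B was called in 13, with a log2 fold change of 1.06 to 1.44 and an adjusted p of 0.00154 to 0.0641. CDKN2A was called in 8 of them and CCND3 in 8, and each had an adjusted p below 0.05 in 13, with changes of 0.88 to 1.03 and 0.73 to 1.02. All 3 calls were lost when the 4 UF1hypo libraries were fitted alone or when libraries were weighted by their spread. With 1 library left out in turn, the change in UF1hypo was 1.16 to 1.40 for CDKN2B, 0.71 to 1.33 for CDKN2A and 0.73 to 1.29 for CCND3. Leaving out an HCT116 library cannot move these changes, since that line is not in the comparison. CDKN2A and CCND3 lost the call on the adjusted p without either UF1hypo shScr library. Both lost it on the fold limit without replicate 1 of UF1hypo shUHRF1 (0.71 and 0.73). A UF1hypo group left with 1 library is assumed in these fits to vary like the other groups. Without either UF1hypo shUHRF1 library the SE of CDKN2B fell from 0.198 to 0.170 and 0.168, since the spread between those 2 libraries then left the fit, so a call there does not show stability. CCND1 was higher in UF1hypo shScr than in HCT116 shScr with an adjusted p of 2.01e-05 to 0.0283 in all 15 settings with every library, and of up to 0.130 with 1 library left out.

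Levels were also set beside each other within the 4 groups. By TPM, which is per transcript length, the order in HCT116 shScr was CCND1 (289.6 ± 16.3, mean ± SD, n = 2 libraries), CDKN2A (157 ± 16.9), CCNE1 (52.3 ± 6.35), CCND3 (36.7 ± 5.16), CDKN1B (26.6 ± 0.0118), CDKN2D (24.95 ± 2.41), CDKN2C (16.0 ± 2.32), CCNE2 (8.65 ± 0.760), CDKN2B (6.87 ± 0.359) and CCND2, listed at 0. CDKN1B and CDKN2D overlapped there, and the other neighbours in the order did not. In UF1hypo shUHRF1 the order began with CCND1 (648 ± 40.4), CDKN2A (261 ± 78.8) and CCND3 (123 ± 33.8), followed by CCNE1 (51.9 ± 2.54), CDKN2D (32.2 ± 6.99) and CDKN1B (25.2 ± 7.34), of which the last 2 overlapped. CDKN2B (12.2 ± 1.53) and CDKN2C (11.4 ± 1.73) overlapped as well, so that CDKN2B no longer lay below CDKN2C as it did in the other groups.

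The deposited coverage, the mean read depth over the bases of a gene, gave another order between genes and nearly the same changes within them. On the TPM scale it put CDKN2A at 12.5 and CCND3 at 2.85 in HCT116 shScr, far below their TPM, and CDKN2D at 23.0 and CCND1 at 255, near theirs. CDKN2A made up 76.6% of the summed INK4 TPM in HCT116 shScr and 82.1% in UF1hypo shUHRF1, but 23.7% and 28.6% of the summed INK4 coverage. The CDKN2A value may hold ARF as well as p16 transcripts, so INK4 sums and shares need not be of INK4 inhibitor RNA alone. Coverage went from 4.39 and 3.94 in UF1hypo shScr to 12.4 and 10.3 in UF1hypo shUHRF1 for CDKN2B, from 8.97 and 10.5 to 23.6 and 16.3 for CDKN2A, and from 4.57 and 4.47 to 11.4 and 7.71 for CCND3. Comparisons between genes therefore depend on the measure, and the cause of the gap was not tested.

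Summed by class, the INK4 genes, with any ARF transcripts counted under CDKN2A, had a TPM of 205 ± 12.5 under shScr and 229 ± 0.545 under shUHRF1 in HCT116, and 164 ± 12.4 and 317 ± 89.0 in UF1hypo. The D-type cyclins summed to 326 ± 11.1, 299 ± 2.70, 566 ± 9.84 and 771 ± 6.55 in the same order. By TPM both sums were highest in UF1hypo shUHRF1. By the coverage values, which are described above, the mean INK4 sum there was 69.2 (78.5 and 59.9) and that in HCT116 shUHRF1 was 69.5 (69.0 and 69.9), so that the INK4 sum was not highest in the clone by that measure. The D-type sum separated the 2 lines in every library by both measures. The E-type cyclins summed to 60.9 ± 5.59, 64.1 ± 4.27, 52.6 ± 4.25 and 57.4 ± 5.80, and knockdown and control libraries overlapped in both lines. Within the D-type sum CCND1 gave 88.7%, 90.6%, 89.5% and 84.0%, and CCND3 gave most of the rest.

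**Figure D2:**
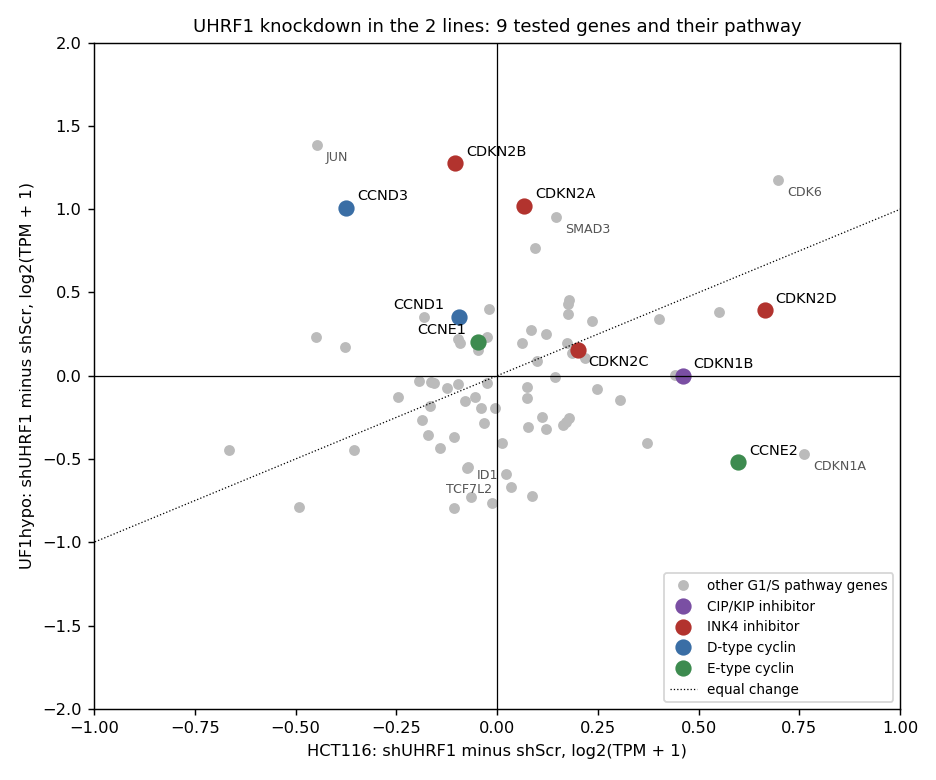
Change after UHRF1 knockdown in HCT116 (horizontal axis) and in UF1hypo (vertical axis), as differences of mean log2(TPM + 1), of the 9 tested genes (coloured by class) and 68 other genes of the G1/S pathway (grey), with the line of equal change. CDKN2B, CCND3, CDKN2A and JUN lie near 1 or above in UF1hypo and near or below 0 in HCT116, and CCNE2 and CDKN1A lie above 0 in HCT116 and below 0 in UF1hypo.

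The partners, targets and regulators of these genes were described by 69 genes in 8 lists, of which 68 were tested. In UF1hypo 2 of the 68 were called after UHRF1 knockdown, CDK6 and JUN, beside the 8.53% of all genes, and 3 were higher and 2 lower at an adjusted p below 0.05. CDK6, the kinase partner of D-type cyclins that INK4 proteins inhibit, had a TPM of 14.4 and 13.1 under shScr and 25.2 and 20.8 under shUHRF1 in HCT116, and 3.76 and 3.03 under shScr and 6.78 and 11.6 under shUHRF1 in UF1hypo. It was lower in the clone (log2 fold change −1.75, SE 0.260, adjusted p = 0.00629) and after knockdown it rose in UF1hypo (1.18, SE 0.262, adjusted p = 0.0215), to levels still under the HCT116 controls. In HCT116 the knockdown libraries also lay above their controls, by 0.70 (SE 0.260, adjusted p = 0.620), with an adjusted p below 0.05 in 3 of 15 other settings. The difference between the lines was 0.48 (SE 0.371, 95% interval −0.37 to 1.33, adjusted p = 0.570). CDK4 had a group mean of 243 TPM under shScr and 227 under shUHRF1 in HCT116, and 205 and 198 in UF1hypo.

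JUN, an AP-1 transcription factor that acts on CCND1, had a TPM of 43.8 and 38.7 under shScr and 28.0 and 32.0 under shUHRF1 in HCT116, and 69.3 and 44.8 under shScr and 173 and 125 under shUHRF1 in UF1hypo. It rose in UF1hypo (1.39, SE 0.242, adjusted p = 0.00719), was −0.45 in HCT116 (adjusted p = 0.891), and the effects differed by 1.83 (SE 0.342, adjusted p = 0.0204). SMAD3, which carries TGF-beta signals to CDKN2B, went from 39.6 and 40.1 TPM in UF1hypo shScr to 86.1 and 71.2 in UF1hypo shUHRF1 (0.96, SE 0.157, adjusted p = 0.00544). ID1, a repressor of CDKN2A transcription, fell by 0.59 there (SE 0.144, adjusted p = 0.0305), and TCF7L2, the Wnt pathway factor, fell by 0.67 (SE 0.155, adjusted p = 0.0249), all 3 within the fold limit. Whether these factors acted on the inhibitors and cyclins in these cells was not tested.

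CDKN1A, which encodes the CIP/KIP inhibitor p21, had a TPM of 285 and 307 under shScr and 519.5 and 485 under shUHRF1 in HCT116, and 427 and 455 under shScr and 357 and 283 under shUHRF1 in UF1hypo. The knockdown libraries lay above their controls in HCT116 and below them in UF1hypo. The effects of 0.76 in HCT116 (SE 0.151, adjusted p = 0.143) and −0.47 in UF1hypo (SE 0.149, adjusted p = 0.0762) did not pass alone, and their difference of −1.23 did (SE 0.211, adjusted p = 0.0148). On the 4 HCT116 libraries alone the adjusted p of the HCT116 effect was 0.000739, and it was below 0.05 in 3 of 15 other settings. With 1 library left out in turn, the HCT116 effect was 0.71 to 0.81.

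Between the control groups, MYC, which represses CDKN2B and activates cyclins and CDK4, was at 485 and 493 TPM in HCT116 shScr and 252 and 217 in UF1hypo shScr (log2 fold change −1.06, SE 0.142, adjusted p = 0.00396). Its effect on CDKN2B, cyclins and CDK4 was not tested. MYC and CDK6 were the 2 of 68 called there, both lower in the clone, beside 3.54% of all genes tested. Of the 68, 52 did not overlap, beside the 66.4% of all genes. Of these, 40 were lower in the clone, beside 4788 of all 12856 genes tested. Of 12 E2F target genes of S-phase entry 0 were called by limma in any of the 4 comparisons, with 0, 1, 2 and 5 at an unadjusted p below 0.05 in the HCT116 knockdown, the UF1hypo knockdown, their difference and the clone, beside 6.38%, 27.4%, 18.5% and 18.2% of all genes tested. Their median log2 fold change was −0.42 in the clone against its parent, 0.09 after knockdown in HCT116 and −0.17 after knockdown in UF1hypo, beside −0.05, −0.03 and 0.04 over all genes tested. Of 13 pocket protein, E2F and DP genes, 11 ubiquitin ligase parts and 9 Polycomb regulators of the INK4 locus, 0 were called in any comparison either, with at most 2 of a list at an unadjusted p below 0.05. E2F1 had group means of 52.3, 44.01, 42.2 and 38.8 TPM, listed from the HCT116 control and knockdown to the UF1hypo control and knockdown. RB1, which encodes the retinoblastoma protein, had means in the same order of 30.1, 34.0, 20.9 and 19.4, with 9.10 and 29.8 in the 2 UF1hypo shUHRF1 libraries.

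By Pearson's correlation of log2(TPM + 1) over the 8 libraries, among 13781 genes, the genes most like CCND3 were POLM (0.997), C6orf132 (0.992) and FAM219A (0.992). C6orf132 lies 50762 bases from CCND3 on chromosome 6, and its TPM was 9.92 and 11.9, 9.79 and 9.98, 16.9 and 16.7, and 30.0 and 25.3, with the HCT116 control and knockdown first and the UF1hypo control and knockdown last. The genes most like CDKN2B were HEG1 (0.988), LGR6 (0.982) and MYADM (0.977). LGR6 had a TPM of 1.32 and 1.25 in UF1hypo shUHRF1 and of 0 to 0.531 in the other groups. It therefore passed the TPM filter only through the group where CDKN2B was highest, and its correlation is no support. Each value rests on 8 libraries in 4 groups and is a description only.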

How the data were processed

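PolyA RNA of 8 libraries in 4 groups was measured by paired-end RNA-seq. The reads were mapped to GRCh38 with HISAT2 2.0.4 and genes were quantified with StringTie 2.1.4, per the submitters' processing notes and the study's methods. The deposited coverage values are StringTie's mean read depth over the bases of a gene, not scaled for library depth by the authors. The deposited FPKM values were scaled by the authors' StringTie runs for length and for the aligned bases of the library. The deposited TPM values were scaled by the authors' StringTie runs for transcript length and to a common total per library. No read counts were used, so the count-based test of the study was not run and counting error is unknown. Dividing coverage by FPKM gives a depth of 5.42 to 7.83 aligned gigabases per library.

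Of 60649 gene identifiers, 60463 were matched to GENCODE 44 and 19942 were protein-coding. Groups came from the sample labels. All 8 libraries entered a linear model of log2(TPM + 1) with group as its term and 4 residual degrees of freedom, in limma 3.58.1 (R 4.3.3) with moderated variances that follow mean expression. Genes with TPM above 1 in any library being compared were tested, and a gene was called at a Benjamini-Hochberg adjusted p below 0.05, over all genes tested, with an absolute log2 fold change above 1. Genes named are UHRF1, the 10 genes described, the antisense gene at CDKN2B, pathway genes with an adjusted p below 0.05 in any contrast or central to the pathway, the 2 nearest expressed neighbours of each gene, and the 3 genes most correlated with CDKN2B and with CCND3. The genes and lists were chosen with earlier results of these data known. The fit was tested on simulated data, in which the added changes were above the fold limit and replicates had no shift with GC content. That test therefore does not bear on calls near the limit or on libraries with such a shift.

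Alternatives were a pseudocount of 0.1, other TPM filters, genes of every biotype, a fit to only the 4 libraries compared, FPKM, median-ratio and quantile scaling, no variance trend, library weights, the largest record of a gene, removal of each library's median within 10 bins of GC content and of length, a block for replicate number, and omission of each library. The coverage values and an exchanged numbering of replicates were added after seeing the data. Promoter sequences are from RefSeq on GRCh38.p14. Tables and figures were made in Python 3.11.15 (pandas 2.3.3, numpy 2.4.6, matplotlib 3.10.9, SciPy 1.17.1).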

Additional observations from a re-analysis of the deposited data

Results flagged for a closer look

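4 genes had effects of UHRF1 knockdown that differed between UF1hypo and HCT116 by the test of the difference itself, in limma with adjustment over 13781 genes. They were 2 of the 9 tested inhibitors and cyclins and 2 of the 68 pathway genes tested, beside 5.09% of all genes tested. The effect in UF1hypo minus that in HCT116 was 1.38 for CDKN2B (SE 0.280, adjusted p = 0.0284) and 1.38 for CCND3 (SE 0.298, adjusted p = 0.0363). Beyond the inhibitors and cyclins it was −1.23 for CDKN1A (SE 0.211, adjusted p = 0.0148) and 1.83 for JUN (SE 0.342, adjusted p = 0.0204). In all 4 genes the 2 knockdown libraries lay apart from their 2 controls in UF1hypo, and in CCND3, CDKN1A and JUN those of HCT116 lay apart on the other side. The groups did not overlap for 48.9% of all genes tested in UF1hypo and for 49.4% in HCT116. The 4 genes were picked by the call on these same libraries, so this separation adds no support. The 14 other settings that kept all 8 libraries called the difference in 14 for CDKN1A, 13 for JUN, 11 for CDKN2B and 10 for CCND3. With 1 library left out in turn, the difference kept its direction in all 8 fits. It was −1.396 to −1.062 for CDKN1A, 1.524 to 2.144 for JUN, 1.261 to 1.499 for CDKN2B and 1.101 to 1.665 for CCND3. None of the 4 genes kept the call in all 8 fits. The fits without 1 of the UF1hypo shUHRF1 libraries kept it for all 4. The spread between these 2 libraries is absent from those fits, so calls there do not show stability. Without a library of the other 3 groups the call was lost in every fit for CDKN1A, CDKN2B and CCND3. For JUN it was lost in most of them.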

How the results depend on the processing

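Of the 3 inhibitors and cyclins called after knockdown in UF1hypo, CDKN2B alone was called with FPKM, median-ratio scaling, quantile normalization, the GC content and length correction and the coverage values (1 gene each), and 0 were called with the 4 libraries of the contrast alone or with library weights. Of the 2 called for the difference between the lines, 1 was called without a TPM filter, with median-ratio scaling, quantile normalization, library weights or the coverage values. Leaving out a library gave 1 to 4 in UF1hypo and 0 to 4 for the difference, and 0 in HCT116 and between the controls.

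Of the 2 pathway genes called in UF1hypo, 0 were called with the 4 libraries alone or library weights and 1 with FPKM. Of the 2 called for the difference, 1 was called with library weights, and of the 2 called between the controls 1 with the GC content and length correction or the coverage values. Leaving out a library gave 0 to 11, 0 to 8 and 0 to 2.

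UHRF1 passed in HCT116 with a pseudocount of 0.1 (−1.52), FPKM (−1.48), the GC content and length correction (−1.46), and with the 4 libraries alone, library weights or the crossed replicate block (−1.50 each), and in UF1hypo it passed the fold limit too with the GC content and length correction (−1.02). Leaving out a library gave −1.58 to −1.41 in HCT116 and −1.17 to −0.51 in UF1hypo.

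Values near 0 turned sign. CDKN1B in UF1hypo was −0.056 with FPKM, −0.058 with median-ratio scaling, −0.020 with quantile normalization and −0.065 with coverage values, and −0.29 to 0.29 with a library left out. The difference for CDKN2C was 0.090 with the GC content and length correction, 0.060 with coverage values and −0.19 to 0.10 with a library left out. With the same correction CCNE2 between the controls was 0.14 and ID1 in HCT116 −0.030. With a library left out, the HCT116 effects ran from −0.042 to 0.18 for CDKN2A, −0.17 to 0.075 for CCNE1, −0.011 to 0.055 for ID1 and −0.076 to 0.15 for TCF7L2. CCNE2 in UF1hypo ran from −1.06 to 0.023, CDKN2D between the controls from −0.15 to 0.044 and the difference for MYC from −0.12 to 0.10.

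By coverage, CDKN2A made up 23.7%, 18.8%, 22.9% and 28.6% of the INK4 sum in the order HCT116 shScr, HCT116 shUHRF1, UF1hypo shScr and UF1hypo shUHRF1, CCND1 98.9%, 99.1%, 99.0% and 98.3% of the D-type sum, and CCNE1 90.2%, 84.8%, 90.9% and 94.0% of the E-type sum. Except where stated above, the cause of these shifts was not tested.

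Replicate numbers did not pair the libraries: the correlation of deviations between same-numbered libraries was 0.055, 0.026, −0.009, −0.004 and −0.029 for 5 pairs of groups and −0.40 for UF1hypo shScr with UF1hypo shUHRF1. With the replicate block, 3 of the genes were called in UF1hypo and 0 for the difference (CDKN2B adjusted p = 0.0530, CCND3 0.0633). With the numbers of UF1hypo shUHRF1 exchanged, 3 and 2 were called.

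Counts over all genes moved as well. In HCT116 the 9 called became 89 with the 4 libraries alone, 101 with library weights, 72 with the GC content and length correction, 30 with the pseudocount of 0.1, 16 with coverage values, 17 with the crossed block, 5 without a variance trend, 3 with median-ratio scaling or all annotated genes, 2 without a filter, 1 with the replicate block, and 0 to 100 with a library left out. In UF1hypo the 1162 called became 563 with the 4 libraries alone, 748 with FPKM, 539 with library weights, and 655 to 2255 with a library left out. The 702 differences became 448 with the pseudocount of 0.1, 419 with library weights and 171 to 2142 with a library left out, and the 455 genes between the controls became 149 to 594.

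Standard errors of the 9 genes ran from 0.125 to 0.331 in the knockdown comparisons, which limits what 2 libraries a group can show, and without counts the error of low values is unknown. Under all alternatives together, 1357 of 1456 values of single genes kept their direction and side of the threshold, 70 lost a call, 4 gained one and 25 turned sign, none of them a call as reported.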

Other observations

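The neighbours of the 10 genes on the chromosome were looked at as 18 expressed protein-coding genes, the 2 nearest of each. Of them 0 were called after knockdown in either line or between the control groups, and 1 for the difference between the lines, beside 0.0708% of all genes tested in HCT116, 8.53% in UF1hypo, 3.54% between the controls and 5.09% for the difference, so that the neighbours' share for the difference is near that of all genes. That gene was MYEOV, a neighbour of CCND1, with a TPM of 90.2 and 81.4 under shScr and 54.3 and 48.4 under shUHRF1 in HCT116, and 129 and 147 under shScr and 215 and 159 under shUHRF1 in UF1hypo. Its knockdown libraries lay below the controls in HCT116 (−0.73) and above them in UF1hypo (0.42), and the difference was 1.15 (SE 0.256, adjusted p = 0.0406).

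Next to CDKN2A and CDKN2B, MTAP, an enzyme of methionine salvage, had a TPM of 150.5 and 146 under shScr and 198 and 149.5 under shUHRF1 in HCT116, and 212 and 128 under shScr and 61.0 and 112 under shUHRF1 in UF1hypo. Its change in UF1hypo was −0.98 (SE 0.320, adjusted p = 0.0818), opposite in sign to those of the INK4 genes beside it and short of the threshold. CAAP1, on the same chromosome arm, was level between the UF1hypo groups at a mean of 16.6 and 16.3 TPM. Next to CCND3, BYSL and TAF8 each had a change of 0.54 in UF1hypo (SE 0.207 and 0.247, adjusted p = 0.130 and 0.204).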
